A study of Mus musculus with 12 samples.

Results

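The genes described are the cytosolic ribosomal protein genes, which encode the proteins of the large (Rpl) and small (Rps) subunits of the ribosome. They were taken by symbol: a symbol that begins with Rpl or Rps followed by a digit, plus Rplp0, Rplp1, Rplp2 and Rpsa, without the S6 kinase symbols (Rps6k, 10 in the table) and without the 5 pseudogene symbols that contain "-ps". Of 23893 genes in the table, 87 had such a symbol, and 69 of them reached a mean of 1 CPM over the 12 libraries (CPM, the count scaled to a library total of 1000000) and were kept as members. They comprise 35 large subunit genes, 26 small subunit genes, the 3 genes of the P stalk (Rplp0, Rplp1 and Rplp2) and 5 paralogs or genes that share only the symbol (Rpl7l1, Rpl22l1, Rpl36al, Rps4l and Rps19bp1).

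The study counted polyA RNA in cultured mouse cortical neurons, to compare deletion of the DNA topoisomerase gene Top1 with topotecan, a drug that traps the TOP1 enzyme on DNA. The study's general methods describe cultures made at E13.5 to E15.5 from embryos of C57BL6/J wild-type females. The cultures were infected at day 3 in vitro with a lentivirus driven by the CaMKIIα promoter. The virus carried tdTomato alone (WT, labelled wild-type) or tdTomato-P2A-CRE (Top1 cKO). According to the study's methods both kinds of culture came from Top1 fl/fl embryos, so WT cells also carry the floxed allele. The methods do not describe the dams of these embryos apart. At day 15 each kind was given vehicle (Veh, 0.003% DMSO) or 300 nM topotecan (Topot) and was harvested 3 days later, so that WT-Veh and WT-Topot, and likewise Top1 cKO-Veh with its treated partner Top1 cKO-Topot, have 3 libraries each. The promoter limits the transgene to neurons, the methods put transduction at 85 to 90%, and untransduced and non-neuronal cells stay in the dish. The study describes its replicates as cultures. The labels do not say whether cultures came from separate litters or what a shared replicate number stands for, and p-values measure the spread between these libraries.

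Each ribosome carries a single copy of nearly every one of these proteins, and growing cells make their mRNAs in like amounts. Their transcripts start with a C followed by a run of pyrimidines (the 5′ TOP motif), through which the kinase complex mTORC1 controls their translation. Mammalian genomes hold many processed pseudogenes of them, intronless copies that arose from reverse-transcribed mRNA, so that short reads from these genes often match several places in the genome.

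As counted in this table, the ribosomal protein genes were not abundant. Their median level was 6.19 CPM, with a range of 1.02 to 224 CPM, against a median of 25.1 CPM over the 13718 genes of at least 1 CPM. Only 14 of the 69 members (20.3%) lay above that median, 5 reached 100 CPM and 23 were under 3 CPM. Members had at least 10 counts in all 12 libraries in 31 cases, and 2 members had a library at 0. The translation elongation factor gene Eef1a1, whose mRNA carries the same 5′ motif, was at 2064 CPM. The glycolytic gene Gapdh, for which rodent genomes also hold many pseudogenes, was at 0.404 CPM. Gapdh was added after seeing the data, and Eef1a1 was not searched for copies. The part of copies in these levels was not tested.

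Levels were also far from even among the members. Rpl8 (224 CPM), Rpl15 (132 CPM) and Rpl4 (123 CPM) were highest, followed by Rpl22 (118 CPM) and Rps3 (117 CPM). Rps27a, which encodes ubiquitin fused to a small subunit protein, was the lowest at 1.02 CPM, followed by Rps23 (1.07 CPM) and Rpl36a (1.15 CPM). Just outside the minimum was Rpl19 at 0.949 CPM. Per kb of transcript Rpl8 (260 CPM per kb), Rpl22 (249 CPM per kb) and Rpl15 (164 CPM per kb) led, and Rpl37 (1.34 CPM per kb), Rps7 (1.48 CPM per kb) and Rps27a (1.60 CPM per kb) came last. Lengths are those of 1 model transcript per gene, the shortest where several had the same coding length, while counts were over all exons. For Rpl22 it had 474 bases and for Rpl15 802, but their longest transcripts had 2051 and 1922, so this order depends on the model chosen. The large subunit genes had a median of 5.07 CPM, the small subunit genes 5.73 CPM and the P stalk genes 42.3 CPM. The 18 symbols under 1 CPM were Rpl10l (no count in any library), Rpl17, Rpl19, Rpl24, Rpl29, Rpl35, Rpl35a, Rpl38, Rpl39l, Rpl3l, Rpl9, Rps10, Rps13, Rps18, Rps27l, Rps27rt, Rps28 and Rps29, most of which encode core subunits of every ribosome.

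The coding sequence of each member was compared with the mouse genome in 50-base windows, the length of the reads, to count copies outside the gene that matched with at most 2 mismatches and no gap. Of 66 members with a gene model, 51 had no window free of a copy and 15 had at least 1. Members without a copy-free window had 1.34 to 164 CPM per kb with a median of 6.04, and those with 1 or more had 4.20 to 260 CPM per kb with a median of 43.0. Copies over most of the coding sequence (at least 80% of its length at 90% identity) were found for 62 of the 66, with a median of 9 places and a maximum of 79 for Rpl21. Across the 66 genes Spearman's rho of the level per kb was 0.57 with the copy-free share of windows (0.45 without the 6 most abundant) and −0.50 with the number of copies. These are descriptions across genes that share the same libraries and differ in length, and the levels per kb rest on 1 transcript length per gene. Membership itself required a mean of 1 CPM, so the rho values are over genes chosen by level. Of 16 symbols under 1 CPM with a gene model, 12 had no copy-free coding window. Rpl3l and Rpl39l, also left out, had 100% copy-free windows at 0.0281 and 0.0661 CPM per kb. How reads with several matches, aligned with TopHat at its default settings, were then counted is not given in the sources used here.

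The plot of level against copy-free windows sets the members beside gene groups of like housekeeping function. The 71 mitochondrial ribosomal protein genes, whose products form the separate ribosome of mitochondria, had a median of 16.8 CPM per kb and 2 genes without a copy-free window. The 77 nuclear oxidative phosphorylation genes had a median of 32.7 CPM per kb and 9 such genes, while the members' median was 7.62 CPM per kb. The 5 members of at least 100 CPM spread over most of the range of copy-free windows, from 91.2% for Rpl8 through 56.8% for Rps3, 30.2% for Rpl22 and 23.0% for Rpl4 to 0% for Rpl15, which had 20 copies.

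**Figure D1:**
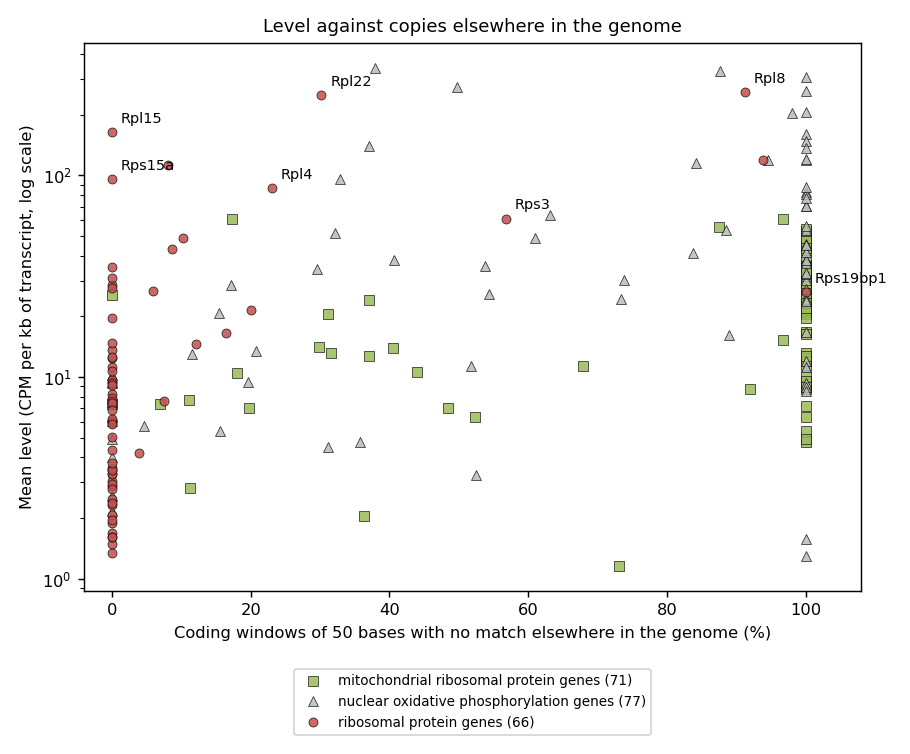
Mean level in CPM per kb of transcript (vertical axis, log scale) against the share of 50-base coding windows without a match elsewhere in the genome (horizontal axis, percent), for 66 ribosomal protein genes, 71 mitochondrial ribosomal protein genes and 77 nuclear oxidative phosphorylation genes. Most ribosomal protein genes stand at 0%, where 51 of 66 lie, and Rpl8 is high on both axes.

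The middle 50 coding bases of 6 members show how a read from such a gene meets its copies. They were chosen because Rpl8 is an abundant member with few copies, Rpl7a is a member with many copies, and Rps15a, Rpl22l1, Rpl13a and Rpl23 are those called in blocked fits below. Coordinates are those of the gene in build NCBIM37 (mm9), and a span over 50 bases crosses an intron.
Rpl8, chr15:76735330-76735379, plus strand, no copy: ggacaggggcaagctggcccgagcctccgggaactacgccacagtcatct
Rpl7a, chr2:26767640-26767895, plus strand, 40 copies: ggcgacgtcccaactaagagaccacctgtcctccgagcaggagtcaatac
Rps15a, chr7:125253525-125258340, minus strand, 7 copies: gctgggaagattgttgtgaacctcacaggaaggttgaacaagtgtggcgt
Rpl22l1, chr3:28705716-28705765, plus strand, 2 copies: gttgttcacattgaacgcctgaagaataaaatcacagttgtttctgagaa
Rpl13a, chr7:52382090-52382139, minus strand, 2 copies: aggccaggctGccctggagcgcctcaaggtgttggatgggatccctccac
Rpl13a copy, chr11:86444211-86444260, minus strand: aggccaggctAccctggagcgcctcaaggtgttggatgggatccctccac
Rpl23, chr11:97639683-97642687, minus strand, 3 copies: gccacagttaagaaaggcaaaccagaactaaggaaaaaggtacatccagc
Of the copies of the Rpl7a window, 5 were identical to the gene over all 50 bases, and of those of Rps15a, 4 were identical, for example at chr11:6072819-6072868. The middle window of the abundant member Rpl15 (132 CPM), not printed, had 17 copies, of which 8 were identical. For Rpl22l1, 1 copy was identical, at chr5:22034299-22034348, and for Rpl23 also 1, at chr6:66825502-66825551. The copy of Rpl13a printed here differs from the gene at the base in capitals. A read from an identical copy and a read from the gene hold the same letters.

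The starts of the genes were searched for sequence features that the family is known for, and each was found in fewer than 50% of the members with a promoter. RefSeq promoters (GRCm38.p6, 250 bases before to 50 after the start) were given for 51 of the 69 members. A C followed by at least 4 pyrimidines, beginning within 5 bases of the start on the gene's strand, was found in 22 of them (43.1%) and in 21.2% of all 27025 genes with a promoter. Runs that begin farther from the annotated start, such as the one at the left end of the Rps15a sequence below, were not counted. The letters CCGGAAG, a core of GABP and other ETS factor sites, stood on either strand in 19 (37.3%) against 9.93% of all genes. AAGATGGC, a core of YY1 sites, stood in 5 (9.8%) against 3.19%. The 30 bases around the start (15 before and 15 after it) are shown for an abundant member and for the 4 members called in blocked fits below, with the pyrimidine run in capitals where there is one.
Rpl15, chr14:18270972-18271001, minus strand: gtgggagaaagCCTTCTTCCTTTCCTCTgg
Rps15a, chr7:118116133-118116162, minus strand: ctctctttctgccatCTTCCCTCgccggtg
Rpl13a, chr7:45128731-45128760, minus strand: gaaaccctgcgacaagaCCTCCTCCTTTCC
Rpl22l1, chr3:28805493-28805522, plus strand: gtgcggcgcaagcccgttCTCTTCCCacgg
Rpl23, chr11:97782425-97782454, minus strand: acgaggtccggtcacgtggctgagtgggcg
The run was 17 bases long in Rpl15 and 8 in both Rps15a and Rpl22l1. In Rpl13a it was 14 bases long and went on past the last base shown, and the Rpl23 start held no such run. A match of letters is a description and not a measured site.

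Library totals ran from 1730164 to 4583777 counts. Top1 was at 117 to 163 CPM in the 6 tdTomato libraries and at 27.1 to 44.0 CPM in the 6 CRE libraries, without overlap. Markers of neurons held a mean of 0.802 to 0.842% of counts in the 4 groups, and microglial markers held at most 0.00132% in any library. Astrocyte markers held 0.0618 to 0.365% of a library's counts. Their median log2 fold change with topotecan against vehicle, over the 7 markers, was −1.52 in tdTomato and −1.20 in CRE cultures. In tdTomato cultures 5 of the 7 were negative. Their shares with vehicle and with topotecan overlap, at 0.127 to 0.327% against 0.0618 to 0.136% in tdTomato cultures. In CRE cultures these were 0.131 to 0.365% against 0.0635 to 0.172%, which also overlap. Each topotecan library still lay below the vehicle library of the same virus and replicate number. In WT-Topot against WT-Veh 2 of the 7 markers were called lower without the replicate block and 4 with it. Of genes of at least 1 CPM 4.75% and 14.3% were called there in either direction. Replicate 1 had the highest astrocyte share in 4 of 4 groups. Progenitor and proliferation markers held 0.0121 to 0.0170% in WT-Veh and 0.0184 to 0.0247% in WT-Topot, without overlap, and 0.0130 to 0.0202% and 0.0182 to 0.0297% in the CRE cultures, which overlap. The 6 such genes of at least 1 CPM had a median log2 fold change of −0.06 in WT-Topot against WT-Veh, with 3 negative, so not all of the list rose. Of these 6, 1 passed there without the block, as did 4.75% of genes of at least 1 CPM. It was Nes, at 1.22 ± 0.22 (SE, adjusted p = 0.00167, edgeR's quasi-likelihood test). The part of these markers in the results below was not tested. In bulk samples fewer cells of a type and less RNA per cell cannot be told apart.

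The share of all counts that fell on the members did not differ between the groups beyond the spread between replicates. In WT-Veh the members held 0.152, 0.118 and 0.185% of counts in replicates 1 to 3, a mean of 0.152% ± 0.0337 (SD, n = 3). In WT-Topot they held 0.158, 0.139 and 0.177%, a mean of 0.158% ± 0.0187 (SD, n = 3). In Top1 cKO-Veh the shares were 0.124, 0.116 and 0.194%, with a mean of 0.145% ± 0.0428 (SD, n = 3). These ranges overlap. The shares in Top1 cKO-Topot were 0.137, 0.131 and 0.185%, with a mean of 0.151% ± 0.0295 (SD, n = 3), within the range of WT-Veh. All 6 differences between group means were between −0.00738 and 0.0132 percentage points, each smaller than the larger SD of its pair of groups. Between libraries of the same replicate number the differences went both ways in each of the 6 comparisons. In WT-Topot against WT-Veh they ran from −0.00876 to 0.0212 percentage points.

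The libraries differed more by replicate number than by group. Replicate 3 had the highest share on the members in 4 of 4 groups (0.177 to 0.194%) and replicate 2 the lowest in 4 of 4 (0.116 to 0.139%). Of the 69 members, 24 (34.8%) were highest in replicate 3 in all 4 groups, against 10.1% of the 13718 genes of at least 1 CPM. Rpl22 went the other way and was the only member lowest in replicate 3 in all 4 groups, at 105 and 98.5 CPM in the tdTomato cultures (vehicle and topotecan) and 93.7 and 93.1 CPM in the CRE cultures, an order that 11.6% of genes of at least 1 CPM had. Rplp0, the P stalk base, had 57.0, 52.7, 62.6 and 56.8 CPM in the 4 replicate 3 libraries and 27.5 to 45.6 CPM in the other 8. The same order of replicates was seen for the mitochondrial ribosomal protein genes (0.173 to 0.247% of counts) and the oxidative phosphorylation genes (0.420 to 0.646%), so it was not particular to the members. The labels do not say what a replicate number stands for, and replicate 3 libraries also had the smallest totals of their groups.

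**Figure D2:**
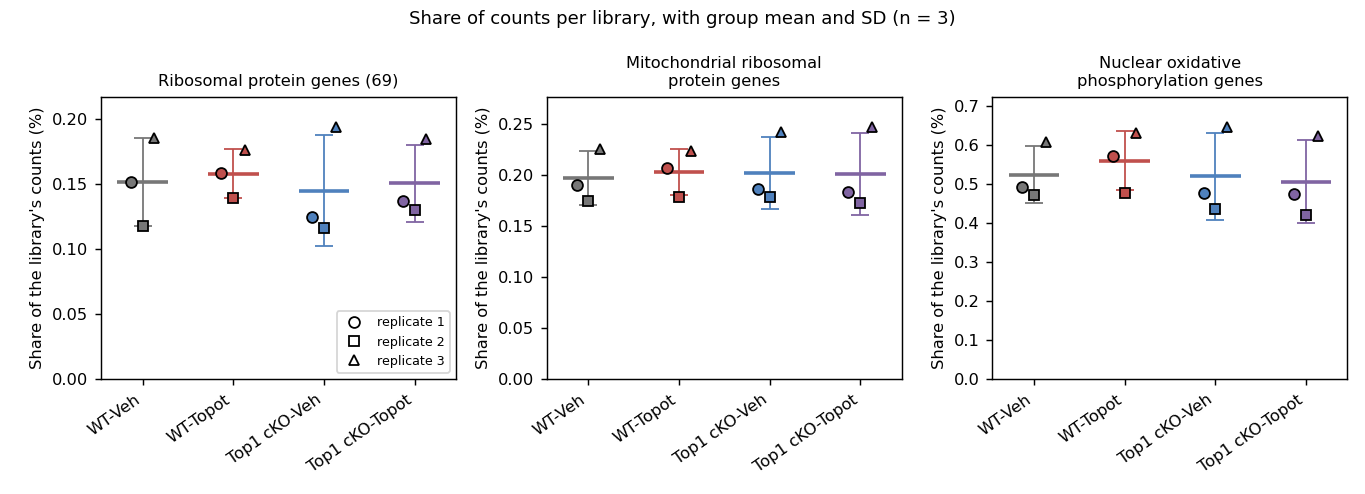
Share of each library's counts (vertical axis, percent) on the 69 ribosomal protein genes, the mitochondrial ribosomal protein genes and the nuclear oxidative phosphorylation genes in the 4 groups, with symbols for replicates 1 to 3, a line for the group mean and bars for 1 SD (n = 3). The group means lie close together, between 0.145 and 0.158% for the ribosomal protein genes, while replicate 3 is highest in each group.

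Differences of single members were tested with edgeR's quasi-likelihood test across all 23893 genes, with Benjamini-Hochberg adjustment and a threshold of 0.01, first without regard to replicate numbers and then with the replicate number as a block. Levels per library are given in CPM scaled by TMM factors. Without the block, 0 of the 69 members passed in any of the 6 comparisons of 2 groups or in the interaction, and DESeq2 (with 19 to 51 members given no adjusted p) and edgeR's exact test (run for the 6 comparisons) also called 0. With the block, 4 members passed in at least 1 comparison. Rpl22l1 was lower in each of the other groups than in WT-Veh, Rpl13a and Rpl23 were lower in Top1 cKO-Veh than in WT-Veh, and Rps15a was higher in CRE than in tdTomato libraries in 3 of the 4 comparisons between them.

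In WT-Topot against WT-Veh, which asks what topotecan does to neurons that keep Top1, the members' median log2 fold change was 0.13, beside 0.03 over the 13718 genes of at least 1 CPM, and 25 of 69 were negative. Of genes of at least 1 CPM 4.75% passed the threshold, and of the members 0 did. At an unadjusted p under 0.05 there was 1 member, which was lower, against 21.4% of genes of at least 1 CPM. The log2 fold changes of the members ran from −1.85 to 1.26. Groups did not overlap for 4 of 69 members, among them Rps3a1, Rpl6 and Rps23, against 26.0% of genes of at least 1 CPM.

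Rpl22l1, a paralog of the large subunit gene Rpl22, was the member with the lowest fold change in that comparison. It was at 19.9, 1.75 and 13.2 CPM in WT-Veh replicates 1 to 3 (68, 4 and 23 counts) and at 2.01, 1.72 and 6.42 CPM in WT-Topot (6, 6 and 15 counts). Replicates 1 and 3 of WT-Veh were high, but replicate 2 lay within the range of WT-Topot, so the groups overlap. The log2 fold change of Rpl22l1 was −1.85 ± 0.62 (SE, adjusted p = 0.119, edgeR's quasi-likelihood test) without the block and −1.71 (adjusted p = 0.000642) with it. With the block 14.3% of genes of at least 1 CPM and this 1 member passed. The value hung on WT-Veh libraries: without WT-Veh replicate 2 it was −2.37 (adjusted p = 0.00280, no block), and without WT-Veh replicate 1 it was −1.15 (adjusted p = 0.473). With the block and replicate 1 left out of both groups it was −0.75 (adjusted p = 0.696), and without replicate 2 or 3 it passed.

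The most abundant member, Rpl8, was at 275, 218 and 299 CPM in WT-Veh and at 232, 221 and 184 CPM in WT-Topot. The ranges overlap between 218 and 232 CPM. The log2 fold change was −0.31 ± 0.18 (SE, adjusted p = 0.553, edgeR's quasi-likelihood test), and it passed in the blocked fit without replicate 2 and in no other fit of this comparison. The other members with the smallest p-values in this comparison were Rps3a1 at 0.59 ± 0.33, Rps26 at 0.80 ± 0.49 and Rpl23a at 1.26 ± 0.84, with adjusted p-values of 0.523 to 0.676 in edgeR's quasi-likelihood test. Rps3a1 and Rps26 encode small subunit proteins and Rpl23a a large subunit protein.

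Top1 cKO-Veh against WT-Veh compares deletion of Top1 with its control in the absence of the drug. The groups also differ in the CRE transgene, so CRE itself and loss of Top1 cannot be told apart. The members' median log2 fold change was 0.00, as was the median over all genes of at least 1 CPM. Without the block 0.299% of genes of at least 1 CPM and 0 members passed. At an unadjusted p under 0.05 there were 5 members, 3 lower and 2 higher, against 14.2% of genes of at least 1 CPM. The groups did not overlap for 6 of 69 members, among them Rpl23, Rpl11, Rps3a1, Rps23 and Rpl18, against 19.9% of genes of at least 1 CPM. With the block 9.66% of genes of at least 1 CPM passed, and 4 members did: Rpl22l1, Rpl13a and Rpl23 lower and Rps15a higher.

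Rpl22l1 was at 1.17, 3.43 and 4.51 CPM in Top1 cKO-Veh (3, 15 and 9 counts), below WT-Veh replicates 1 and 3 and on both sides of WT-Veh replicate 2. The fitted log2 fold change was −1.96 ± 0.65 (SE, adjusted p = 0.254) without and −1.65 (adjusted p = 0.000714) with the block in edgeR's quasi-likelihood test. Rpl23, a large subunit protein that also binds the p53 regulator MDM2, was at 9.07, 10.1 and 10.9 CPM in WT-Veh and at 2.74, 3.21 and 7.01 CPM in Top1 cKO-Veh. Every Top1 cKO-Veh library lay below every WT-Veh library. This gave a log2 fold change of −1.26 ± 0.44 (SE, adjusted p = 0.293) without and −1.32 (adjusted p = 0.00746) with the block.

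Rpl13a, a large subunit protein also known from a complex that silences mRNAs in inflammation, was at 36.3, 21.0 and 52.4 CPM in WT-Veh and at 15.3, 17.2 and 27.6 CPM in Top1 cKO-Veh. Each CRE library was below the WT-Veh library of the same number, and the ranges overlap. Its log2 fold change was −0.88 ± 0.33 (SE, adjusted p = 0.370, edgeR's quasi-likelihood test) and −0.83 (adjusted p = 0.00221) with the block. Rps15a, a small subunit protein, was at 29.8, 43.4 and 57.0 CPM in WT-Veh and at 44.6, 63.2 and 94.2 CPM in Top1 cKO-Veh. It was higher in each CRE library than in the WT-Veh library of the same number, and the ranges overlap. This gave a log2 fold change of 0.64 ± 0.29 (SE, adjusted p = 0.533, edgeR's quasi-likelihood test) and 0.61 (adjusted p = 0.00536) with the block.

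None of these 4 calls held in every blocked fit that left out a replicate number. Rpl22l1 and Rpl13a passed without replicate 2, at −2.65 (adjusted p = 7.13e-07) and −1.08 (adjusted p = 0.000679), and no member passed without replicate 1 or without replicate 3 in edgeR's quasi-likelihood test. Without replicate 1 the blocked log2 fold change of Rpl22l1 was −0.51 (adjusted p = 1). Rpl23 stayed between −1.67 and −1.14 and Rps15a between 0.56 and 0.65 in these fits. Rpl11, which with Rpl5 and 5S rRNA forms a particle that binds MDM2, was at 0.585, 0.877 and 0.576 CPM in WT-Veh and at 1.56, 2.06 and 3.51 CPM in Top1 cKO-Veh, without overlap but at a few counts a library, with a log2 fold change of 1.71 ± 0.77 (SE, adjusted p = 0.527).

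**Figure D3:**
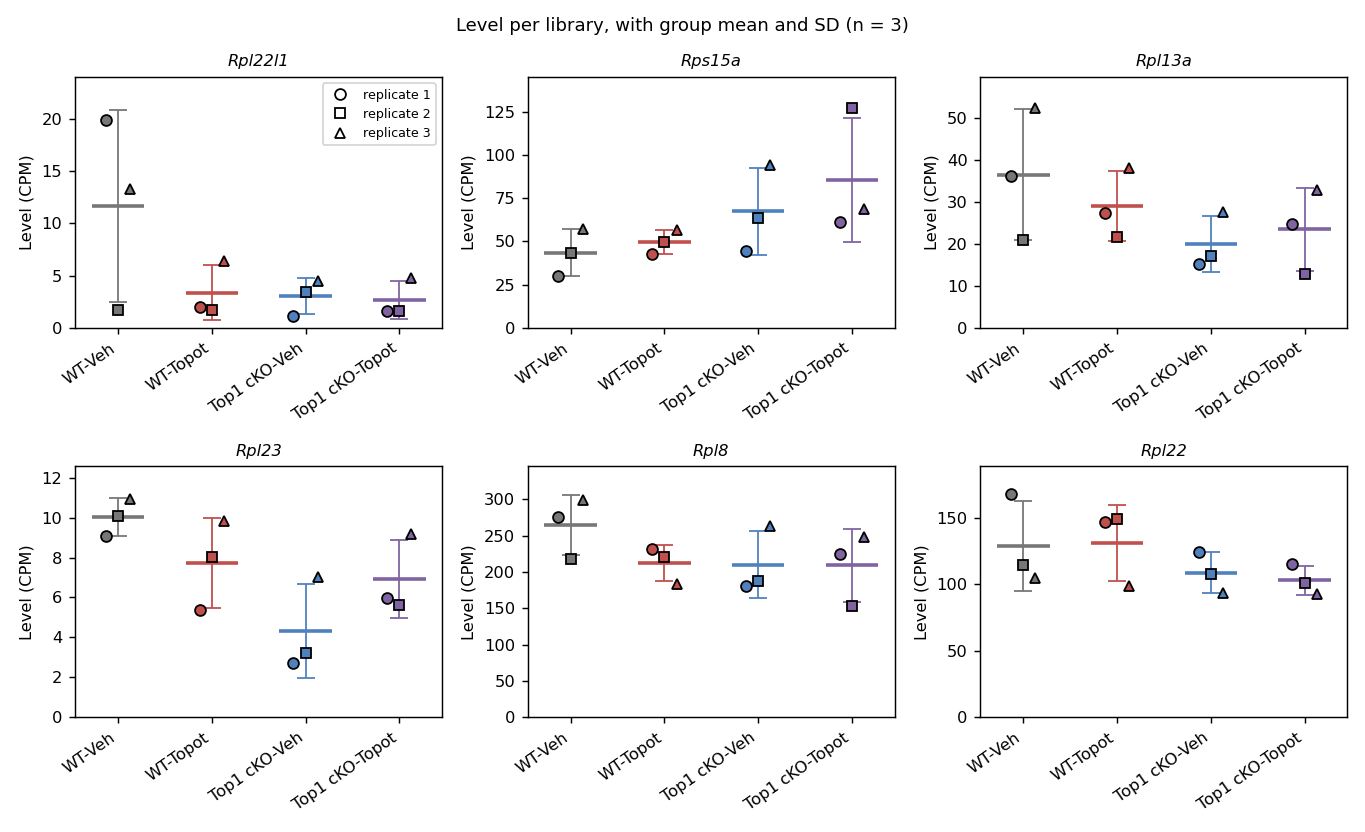
Level in CPM (vertical axis, TMM-scaled, from 0) of Rpl22l1, Rps15a, Rpl13a, Rpl23, Rpl8 and Rpl22 in each library of the 4 groups, with symbols for replicates 1 to 3, a line for the group mean and bars for 1 SD (n = 3). Rpl22l1 is high in 2 of 3 WT-Veh libraries, Rps15a has its highest library in Top1 cKO-Topot replicate 2, and Rpl22 is lowest in replicate 3 of each group.

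In Top1 cKO-Topot against WT-Veh, which joins both treatments, the members' median log2 fold change was 0.07, beside 0.02 over genes of at least 1 CPM. Of genes of at least 1 CPM 2.93% passed without the block and 12.8% with it, against 0 and 2 of the members. At an unadjusted p under 0.05 without the block there were 4 members, 1 lower and 3 higher, against 22.3% of genes of at least 1 CPM. The members whose groups did not overlap numbered 13 of 69, against 26.5% of genes of at least 1 CPM. Rps15a was at 61.3, 127 and 68.6 CPM in Top1 cKO-Topot, with every library above the 29.8 to 57.0 CPM of WT-Veh and replicate 2 the highest of all 12 libraries. Its log2 fold change was 1.02 ± 0.28 (SE, adjusted p = 0.0453, edgeR's quasi-likelihood test) and 0.99 (adjusted p = 0.000152) with the block.

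Top1 cKO-Topot replicate 2 moved the Rps15a value most. Without that library the log2 fold change was 0.60 (adjusted p = 0.463, edgeR's quasi-likelihood test without the block), and without WT-Veh replicate 3 it was 1.26 (adjusted p = 0.000158). In blocked fits it was 0.68 (adjusted p = 0.00941) without replicate 2, 1.32 (adjusted p = 2.34e-07) without replicate 3 and 0.94 (adjusted p = 0.353) without replicate 1. The table counts a pseudogene of this gene, Rps15a-ps4, apart, at a mean of 60.5 CPM, and it had a log2 fold change of 0.31 ± 0.26 (SE, adjusted p = 0.769) in the same comparison. Since copies share reads with Rps15a, the split of counts between the gene and its copies is uncertain.

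Rpl22l1 was at 1.59, 1.66 and 4.81 CPM in Top1 cKO-Topot (4, 5 and 11 counts), again below 2 of the 3 WT-Veh libraries. Its log2 fold change was −2.13 ± 0.63 (SE, adjusted p = 0.0667, edgeR's quasi-likelihood test) and −1.95 (adjusted p = 0.00211) with the block. Without WT-Veh replicate 1 it was −1.42 (adjusted p = 0.320, no block), and without WT-Veh replicate 2 it was −2.64 (adjusted p = 0.00390). The comparisons of the 3 other groups with WT-Veh share its libraries, so the 3 values of Rpl22l1 and of Rps15a are not independent of each other. Rpl23a (1.87 ± 0.79), Rps26 (1.06 ± 0.50) and Rps4l (0.73 ± 0.39) had the next smallest p-values, with adjusted p-values of 0.267 to 0.448 in edgeR's quasi-likelihood test.

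In Top1 cKO-Topot against Top1 cKO-Veh, which asks what topotecan adds where Top1 was deleted, 0 members passed without and 0 with the block, and 0 had an unadjusted p under 0.05 without it. Of genes of at least 1 CPM 0.0146% passed without and 4.51% with the block, and 6.85% had an unadjusted p under 0.05. The members' median log2 fold change was 0.10, beside 0.00 over genes of at least 1 CPM, and values ran from −0.67 to 1.15. Groups did not overlap for 2 of the 69 members, Rps2 and Rpl37, against 11.7% of genes of at least 1 CPM. Among the members of smallest p were Rpl23 (0.74 ± 0.47), Rps2 (0.95 ± 0.61), Rps21 (1.15 ± 0.74) and Rpl41 (−0.64 ± 0.46), with an adjusted p of 1 for each in edgeR's quasi-likelihood test. With the block and without replicate 3, 1 member passed, Rps15a, which was higher, and the share of all genes in that fit is not given here.

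In Top1 cKO-Topot against WT-Topot, which compares the viruses under topotecan, 4.34% of genes of at least 1 CPM and 0 members passed without the block, and 15.1% and 1 member, Rps15a, passed with it. At an unadjusted p under 0.05 without the block there were 2 members, 1 lower and 1 higher, against 23.4% of genes of at least 1 CPM. Rps15a was at 42.9, 49.5 and 56.5 CPM in WT-Topot, below every Top1 cKO-Topot library. Its log2 fold change was 0.79 ± 0.24 (SE, adjusted p = 0.0533, edgeR's quasi-likelihood test) and 0.75 (adjusted p = 0.000584) with the block, and 0.38 (adjusted p = 0.569, no block) without Top1 cKO-Topot replicate 2. Rps15a-ps4 had a log2 fold change of 0.10 ± 0.22 there. In blocked fits Rps15a passed without replicate 1 but not without replicate 2 (0.40, adjusted p = 0.258) or without replicate 3 (0.98, adjusted p = 0.104).

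The other member of small p in that comparison was Rpl6, a large subunit protein, at 18.4, 18.6 and 18.8 CPM in WT-Topot and at 13.1, 7.31 and 13.1 CPM in Top1 cKO-Topot. The groups do not overlap, and the log2 fold change was −0.75 ± 0.31 (SE, adjusted p = 0.214, edgeR's quasi-likelihood test). Rpl22 (−0.36 ± 0.19), Rps24 (−0.71 ± 0.40) and Rps12 (1.27 ± 0.77) followed, with adjusted p-values of 0.421 to 0.556. Groups did not overlap for 5 of 69 members, among them Rps15a, Rpl6 and Rpl37, against 27.4% of genes of at least 1 CPM. The members' median log2 fold change was −0.02, the same as over all genes of at least 1 CPM.

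WT-Topot against Top1 cKO-Veh sets the drug beside the deletion. Of genes of at least 1 CPM 2.66% passed without and 13.4% with the block, and of the members 0 and 0. At an unadjusted p under 0.05 without the block there was 1 member, which was higher, against 20.1% of genes of at least 1 CPM. The median log2 fold change was 0.04, beside 0.01 over genes of at least 1 CPM. Rpl6 (0.63 ± 0.29), Rpl39 (1.19 ± 0.59), Rpl23 (0.89 ± 0.45) and Rpl13a (0.56 ± 0.29) were among the members of smallest p, with adjusted p-values of 0.380 to 0.495 in edgeR's quasi-likelihood test. Groups did not overlap for 3 members (Rpl6, Rpl11 and Rps2), of 69, against 24.4% of genes of at least 1 CPM.

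The interaction asks whether topotecan changed a gene differently in CRE and tdTomato cultures, and is positive where the change with topotecan was higher in CRE cultures. Of genes of at least 1 CPM 0.758% passed without and 6.9% with the block, and of the members 0 and 0. No member had an unadjusted p under 0.05 without the block, against 13.4% of genes of at least 1 CPM. The members' median was 0.00, beside −0.03 over genes of at least 1 CPM, with a range of −1.19 to 1.74. Rpl23 (1.10 ± 0.57), Rpl22l1 (1.66 ± 1.02), Rps21 (1.74 ± 1.14) and Rpl13 (−0.72 ± 0.52) were among the members of smallest p, with adjusted p-values of 0.685 to 0.929 in edgeR's quasi-likelihood test.

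**Figure D4:**
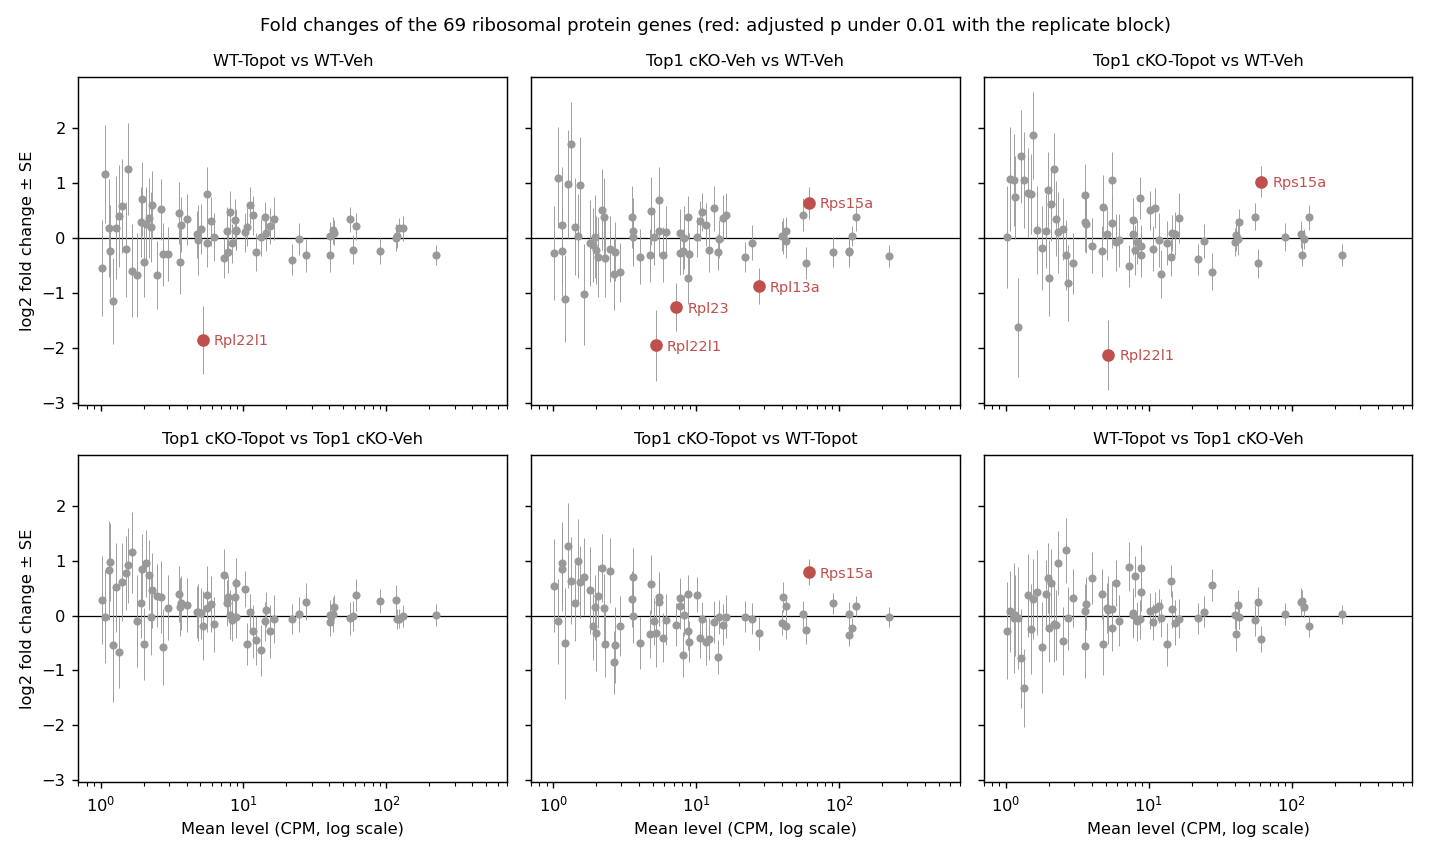
Log2 fold change with its SE (vertical axis) against the mean level (horizontal axis, CPM, log scale) of the 69 ribosomal protein genes in the 6 comparisons of 2 groups, fitted without the replicate block. The genes in red passed an adjusted p of 0.01 only when the replicate number was a block: Rpl22l1 in 3 comparisons, Rps15a in 3, and Rpl13a and Rpl23 in 1.

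The intervals say how much the members could have differed unseen. The 95% interval of the log2 fold change lay within −1 and 1 for 28 of the 69 members in WT-Topot against WT-Veh, for 15 in Top1 cKO-Veh against WT-Veh and for 23 in Top1 cKO-Topot against Top1 cKO-Veh. With the block these were 34, 32 and 34. For Rpl15, the second most abundant member, the interval in WT-Topot against WT-Veh was −0.29 to 0.65, and for Rps3 −0.52 to 0.53. In each of these fits, members not counted as within −1 and 1 had an interval that reached 2-fold or more in at least 1 direction.

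The members of special role that follow were called in no comparison, with or without the block. The P stalk proteins bind the translation factors: Rplp0 had group means of 40.3 to 45.4 CPM, Rplp1 45.3 to 61.2 CPM and Rplp2 5.78 to 6.68 CPM, with log2 fold changes of −0.19 to 0.43 over the 6 comparisons. Rpsa, a small subunit protein also known as the laminin receptor precursor, was at 11.7, 13.1 and 15.6 CPM in WT-Veh and had fold changes of −0.29 to 0.36. Rps6, the small subunit protein that S6 kinases phosphorylate, was at 8.19, 8.77 and 8.64 CPM in WT-Veh and at 8.38, 6.87 and 8.56 CPM in WT-Topot, and its fold changes were −0.10 to 0.01 with SEs of 0.36 to 0.57.

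Rpl5, the partner of Rpl11, had a mean of 70.3 CPM in WT-Veh and 60.2 CPM in WT-Topot. In the CRE cultures its means were 51.5 CPM with vehicle and 50.2 CPM with topotecan. Its log2 fold changes against WT-Veh were −0.21 ± 0.27, −0.45 ± 0.29 and −0.46 ± 0.26 (SE), with adjusted p-values of 0.520 to 0.957 in edgeR's quasi-likelihood test. Rpl3, at the peptidyl transferase centre, had means of 1.58 to 3.24 CPM, Rpl10, which joins the large subunit late, 1.14 to 2.19 CPM, and the X-linked Rps4x 4.83 to 7.08 CPM. The SEs for Rpl3 and Rpl10 were 0.58 to 0.86.

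Among the paralogs and symbol neighbours, Rpl22l1 was the only gene called in any blocked fit. Rpl22 itself was at 168, 114 and 105 CPM in WT-Veh and at 147, 149 and 98.5 CPM in WT-Topot, with a log2 fold change of 0.03 ± 0.21 (SE) there and of −0.25 ± 0.21 in Top1 cKO-Veh against WT-Veh, neither called. Rpl7l1, a relative of Rpl7 that works in making the large subunit, had means of 39.3 to 47.2 CPM, Rpl36al 13.9 to 15.0 CPM and Rps4l 6.74 to 11 CPM. Rps19bp1, which binds Rps19 and is not a ribosomal protein, had 100% copy-free windows and means of 19.9 to 26.6 CPM, with log2 fold changes of −0.39 to −0.02. Rpl39 and Rps27, whose paralogs Rpl39l and Rps27l were under 1 CPM, had fold changes of −0.85 to 1.19 and −0.72 to −0.21 with SEs of 0.56 to 0.69.

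The members are short genes in a study of a treatment known for its effect on long ones. Their median span was 3.18 kb (0.85 to 25.16 kb) against 25.4 kb over 12120 genes of at least 1 CPM with a span, of which 5.78% were shorter than the members' median. In WT-Topot against WT-Veh, other genes under 10 kb (2840 genes) had a median log2 fold change of 0.11 and 3.2% of them passed without the block, and genes of at least 100 kb (1911 genes) had −0.42 and 18.6%. The members' 0.13 lay beside the short genes. Among 1449 other genes under 10 kb with 1 to 20 CPM, the level of most members, 1.79% passed in that comparison.

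In the other comparisons the members' median also lay nearer to that of genes under 10 kb than to that of genes of at least 100 kb. In Top1 cKO-Veh against WT-Veh all 3 medians were between −0.05 and 0.01, and with the block the members' median there was −0.04, that of genes of at least 100 kb −0.04 and that of genes under 10 kb 0.02, so that the members lay nearer to the long genes. For Top1 cKO-Topot against WT-Topot the median was −0.07 for genes under 10 kb and 0.29 for genes of at least 100 kb, with −0.02 for the members. For the interaction these were −0.10, 0.33 and 0.00.

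**Figure D5:**
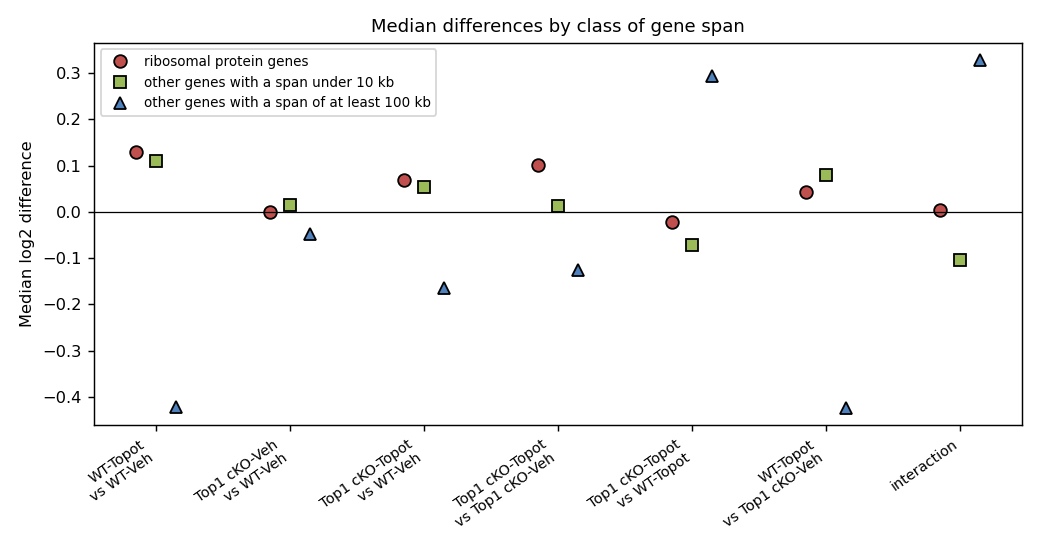
Median log2 difference (vertical axis) of the 69 ribosomal protein genes, of other genes with a span under 10 kb and of other genes with a span of at least 100 kb, for the 6 comparisons and the interaction. Genes of at least 100 kb stand apart where WT-Topot is compared with a vehicle group (−0.42 in WT-Topot against WT-Veh), and the ribosomal protein genes stay between −0.02 and 0.13.

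Other genes of the pathway were described by list: 20 other TOP mRNA and translation factor genes, 41 ribosome biogenesis genes, 18 mTORC1 and TOP mRNA regulators and 11 regulators of ribosomal protein gene promoters. Without the block, in WT-Topot against WT-Veh, where 4.75% of genes of at least 1 CPM passed, 1 of the 18 mTORC1 genes fell, and it was Rptor, the scaffold of mTORC1, at −1.0 ± 0.21 (SE, adjusted p = 0.0061, edgeR's quasi-likelihood test). Of the promoter regulators 1 of 11 rose, Mycn, at 1.13 ± 0.22 (adjusted p = 0.0036). In Top1 cKO-Topot against WT-Topot (4.34% of genes of at least 1 CPM) Rptor was higher by 1.13 ± 0.21 (adjusted p = 0.0012), and Mycn was lower at −0.95 ± 0.22 (adjusted p = 0.0088). The biogenesis gene Tsr1, which works in small subunit assembly, was also lower in that comparison at −0.91 ± 0.19 (adjusted p = 0.0050). In Top1 cKO-Topot against WT-Veh (2.93%) the translational repressor gene Eif4ebp1 was lower at −2.36 (adjusted p = 0.00242), and the TOP gene Nap1l1, a histone chaperone, was higher at 0.81 ± 0.17 (adjusted p = 0.0088). Against Top1 cKO-Veh (2.66%), Rptor was also lower in WT-Topot, at −1.09 ± 0.20 (adjusted p = 0.0033).

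The medians of these lists can be set beside that of the members. In WT-Topot against WT-Veh the median log2 fold change was 0.16 for the TOP genes, 0.02 for biogenesis, −0.04 for the mTORC1 regulators and 0.34 for the promoter regulators, beside 0.13 for the members. In Top1 cKO-Veh against WT-Veh no gene of these lists passed without the block, while with it, beside 9.66% of genes of at least 1 CPM, 1 of 20 TOP genes was lower and 1 higher, 1 of 41 biogenesis and 2 of 18 mTORC1 genes were lower and 2 of 11 promoter regulators were higher. The medians there were −0.06, −0.07, −0.04 and 0.21 in the same order, beside 0.00 for the members.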

How the data were processed

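The authors deposited raw counts per gene symbol for 12 libraries (4 groups of 3). The labels and methods give paired-end reads, a TruSeq polyA kit, TopHat and genome build mm9, with counts over RefSeq exons. TopHat was run with default settings. The counting program, its strand setting and its treatment of reads with several alignments are not given in the sources used here.

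The members, gene lists and tests were chosen with earlier results of these data known. Named genes were members past the threshold in a comparison (or up to the 5 smallest p-values), members of special role, the 3 highest and 3 lowest levels, and from other lists the genes of smallest p, of which only those past the threshold were printed. Some members and list genes that meet these rules are not reported here.

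Membership used CPM on the library total. Levels per library used TMM-scaled CPM. edgeR 4.0.16 (R 4.3.3) fitted each comparison on its own 6 libraries, and the interaction on all 12, by the quasi-likelihood test without a filter, with adjustment over 23893 genes and a threshold of 0.01. The script was tested on simulated data. Same-numbered libraries of different groups deviated together (18 pairs, r = 0.261 to 0.484 over 13718 genes, against −0.382 to −0.0490 for 36 pairs of different number), so blocked values stand beside each result they change. The replicates are described as cultures, and the sources used here do not say what a shared number marks. Intervals cover the spread between libraries.

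Alternatives were DESeq2 1.42.0, the exact test, other size factors, filterByExpr, an FDR of 0.05 and leaving out libraries. Copies were searched with BLAST+ 2.17.0 against NCBIM37 with GENCODE vM1 models, which 66 members matched. Promoter sequences are RefSeq's for GRCm38.p6.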

Additional observations from a re-analysis of the deposited data

Results flagged for a closer look

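For 2 members every WT-Topot library lay below the WT-Veh mean while every Top1 cKO-Topot library lay above the Top1 cKO-Veh mean. The share of all genes with this pattern is not given here, so the count cannot be set beside a background. Rpl23, a large subunit gene, was at 5.36, 8.01 and 9.85 CPM in WT-Topot against 9.07, 10.1 and 10.9 CPM in WT-Veh, and at 5.97, 5.65 and 9.18 CPM in Top1 cKO-Topot against 2.74, 3.21 and 7.01 CPM in Top1 cKO-Veh. The log2 difference between the effects of topotecan was 1.10 (adjusted p = 0.685, edgeR's quasi-likelihood test of the interaction). Rps21, a small subunit gene, was at 1.68, 0.859 and 1.28 CPM in WT-Topot against 0.878, 0.438 and 5.18 CPM in WT-Veh, where replicate 3 alone sets the mean. It was at 1.59, 1.33 and 3.50 CPM in Top1 cKO-Topot against 0.782, 0.687 and 1.50 CPM in Top1 cKO-Veh, and the difference was 1.74 (adjusted p = 0.861). Neither difference passed the test of the interaction.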

How the results depend on the processing

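Levels of a few counts a library, and copies elsewhere in the genome, limit what these values can show. With the replicate block the calls over genes of at least 1 CPM went from 651 to 1966 in WT-Topot against WT-Veh, from 41 to 1325 in Top1 cKO-Veh against WT-Veh, from 402 to 1760 in Top1 cKO-Topot against WT-Veh, from 2 to 619 in Top1 cKO-Topot against Top1 cKO-Veh, from 596 to 2071 in Top1 cKO-Topot against WT-Topot, from 365 to 1837 in WT-Topot against Top1 cKO-Veh and from 104 to 947 in the interaction. Against 0 members without it, the block called 1 member lower in WT-Topot against WT-Veh, 3 lower and 1 higher in Top1 cKO-Veh against WT-Veh, 1 lower and 1 higher in Top1 cKO-Topot against WT-Veh and 1 higher in Top1 cKO-Topot against WT-Topot. The block changed no other call of a member.

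An FDR of 0.05 called 1 member higher, Rps15a, in Top1 cKO-Topot against WT-Veh. The share of all genes called is not given for this setting or for fits without a library or a replicate number. The counts of members in these settings therefore cannot be set beside a background. Leaving out 1 library at a time gave 0 to 1 members lower in WT-Topot against WT-Veh, 0 to 1 lower and 0 to 1 higher in Top1 cKO-Topot against WT-Veh, and 0 to 1 higher in Top1 cKO-Topot against WT-Topot. Blocked fits without 1 replicate number, chosen after seeing the data, gave 0 to 2 lower in WT-Topot against WT-Veh and in Top1 cKO-Veh against WT-Veh, 0 to 1 lower and 0 to 1 higher in Top1 cKO-Topot against WT-Veh, and 0 to 1 higher in Top1 cKO-Topot against WT-Topot as well as against Top1 cKO-Veh. The cause was not tested.

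The members' median log2 fold change changed sign in some settings in every comparison except WT-Topot against WT-Veh. Leaving out a library moved it between 0.00 and 0.22 in WT-Topot against WT-Veh and between −0.33 and 0.15 in Top1 cKO-Veh against WT-Veh. Of 2186 values of single genes under the other settings, 17 passed the threshold only under the alternative, and 197 had the other sign and were called in neither fit.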
